A study of Mus musculus with 9 samples.

Results

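Transcripts of 10 transcription factors of the liver mesenchyme and mesothelium were followed through cells sorted by the activity of the WT1 locus. The study names these cells activated hepatic stellate cells (aHSCs). The genes were LOC100048295, Tcf21, Lhx2, Gata4, Gata6, Hand2, Nr2f1, Nr2f2, Tbx18 and Foxf1a, and every probe which carried one of these names as its symbol, or else as a synonym, was taken. This gave 12 probes of 9 genes, out of 45281 gene probes on the bead array used (Illumina MouseWG-6 v2.0). Nr2f1 matched no probe. LOC100048295 is described in the deposited annotation as similar to the Wilms tumour homologue, and it stands here for the WT1 transcript, although whether its probe measures the Wt1 mRNA itself was not tested.

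There were 3 groups of 3 arrays, all labelled as male C57/Bl6 mice in which 1 allele of the WT1 locus carries a reporter, green fluorescent protein or GFP (WT1GFP/+), so that the reporter allele was shared by every group. WT1-high (GFP high) and WT1-intermediate (GFP low) cells were sorted from livers injured chronically with carbon tetrachloride. The study states 3 animals for their 6 arrays, although the labels carry the numbers 1, 8, 29 and 30. WT1-negative (GFP negative) cells were sorted from quiescent stellate cells of WT1GFP/+ animals after 7 days of activation on plastic. Animals entered the injury model at 8 to 12 weeks of age, whereas an age for the cultured cells is not given in the sources used here. The methods of the study allow both sexes for culture work, so the sex of the WT1-negative arrays rests on their labels. WT1 status in these arrays therefore coincides with origin in liver or culture for every comparison with WT1-negative cells, and these cannot be told apart. Replicates carry the numbers of the labels, which were 1, 8 and 29 for WT1-high, 1, 8 and 30 for WT1-intermediate, and 3, 11 and 14 for WT1-negative.

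The mesothelium of the liver and the mesenchyme beneath it arise from the septum transversum and the coelomic lining. WT1, a zinc finger factor, is active in the mesothelium and in cells that leave it. Tcf21 and Hand2 are basic helix-loop-helix factors, which bind E-boxes as dimers with widely expressed partners. Gata4 and Gata6 are zinc finger factors of coelomic and cardiac mesoderm, Nr2f1 and Nr2f2 are orphan nuclear receptors of mesenchyme, Lhx2 is a LIM homeodomain factor needed for stellate cells to stay quiescent, Tbx18 is a T-box factor of coelomic epithelia, and Foxf1a is a forkhead factor of septum transversum mesenchyme.

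Values are given on 2 scales. The intensity is the deposited brightness of a probe before any correction, and the log2 level is the same value after background correction and quantile normalization. A probe was termed detected on an array where its deposited detection p, the share of negative control probes that were brighter, was under 0.05. A difference is the first group's mean log2 level minus the second's, and it was called where limma's p was under 0.05 after Benjamini-Hochberg adjustment across the 20573 probes tested. Between 38.1% and 43.7% of gene probes were detected per array. Median negative control intensities lay between 76.3 and 93.6.

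The arrays were checked against lists of cell type markers. Of 12 mesothelial markers tested, all 12 were detected on every WT1-high and WT1-intermediate array, whereas 5, among them Muc16 and Krt19, were detected on no WT1-negative array. Mean log2 levels over this list ran from 10.6 to 10.8 on WT1-high arrays, from 10.01 to 10.3 on WT1-intermediate arrays and ran from 4.95 to 5.19 on WT1-negative arrays. Of 12 hepatic stellate markers, 8 could be tested, and Lrat, Gfap, Rgs5 and Vipr1 did not pass the filter on detection. Their list means lay between 6.64 and 7.37 on the 9 arrays. Skeletal muscle markers had list means of 8.58 to 9.09 in WT1-negative arrays and 4.27 to 4.48 in the others. In bulk samples such as these, fewer cells of a type and less RNA per cell cannot be told apart.

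Of the 9 genes with a probe, 7 passed the filter (detection on at least 3 of the 9 arrays) and were tested. In WT1-high against WT1-intermediate cells, Tcf21 alone of the 7 was called, and it was lower in WT1-high. Of all probes tested, 3.55% were called in this comparison and 2.64% were called lower in WT1-high. In WT1-high against WT1-negative cells, 6 of the 7 were called, 5 of them higher and Tcf21 lower in WT1-high. The share of all probes called was 59.6%, with 26.5% higher and 33.1% lower. In WT1-intermediate against WT1-negative cells, 5 of the 7 were called, all higher in WT1-intermediate, beside 58.0% of all probes called and 24.4% called higher. The comparisons share their groups and are not independent of one another. A member that was bright only in the liver arrays could pass the filter through them, which raises its chance of a call. Hand2 and Gata4, detected on no WT1-negative array, were such members. The counts also include LOC100048295, which stands for the locus used in the sort, so its calls against WT1-negative cells are not independent of the gates.

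**Figure D1:**
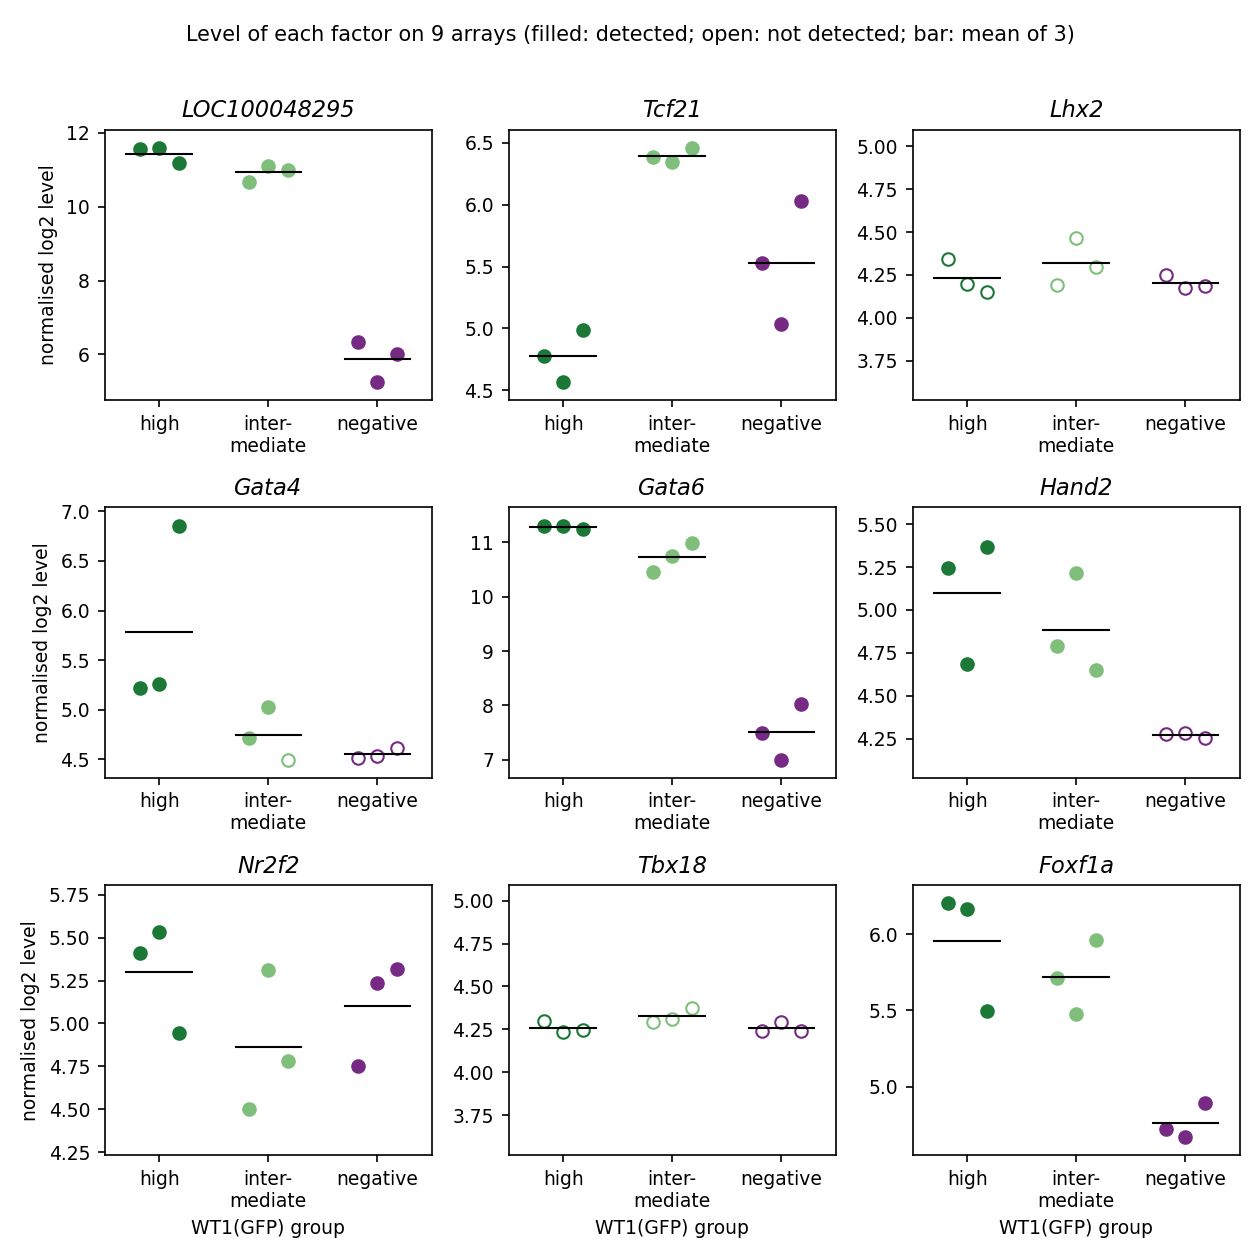
Each panel plots the normalised log2 level (vertical axis, a separate scale in each panel) of 1 gene on the 9 arrays, by WT1(GFP) group on the horizontal axis. Points are arrays in the order of their numbers, filled where the probe was detected and open where it was not, and bars are means of 3 arrays. LOC100048295 and Gata6 separate the liver arrays from the WT1-negative arrays, Tcf21 is highest in WT1-intermediate, and Lhx2 and Tbx18 (brightest probe) were detected on no array.

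The sort was made on GFP from the WT1 locus, so the LOC100048295 probe, within the limit given above, serves as a check of the groups. Its intensity was 3278, 4247 and 2561 on WT1-high arrays 1, 8 and 29, and 1215, 2132 and 1082 on WT1-intermediate arrays 1, 8 and 30. It was 160, 118 and 148 on WT1-negative arrays 3, 11 and 14, where the probe was still detected on all 3. The order followed the gates, and the WT1-positive and WT1-negative arrays lay far apart. The log2 level was 11.4 ± 0.23 (SD, n = 3 here and below) for WT1-high, against 10.9 ± 0.22 and 5.87 ± 0.56 for WT1-intermediate and WT1-negative. WT1-high exceeded WT1-negative by 5.57 (SE 0.25, adjusted p = 2.13e-08), a 47.4-fold difference, and WT1-intermediate exceeded WT1-negative by 5.05 (SE 0.25, adjusted p = 5.25e-08). Between the liver groups the difference was 0.51 (95% interval -0.05 to 1.07, adjusted p = 0.337), which was not called although the log2 levels of the groups did not overlap. With a fixed replicate block by the labels' numbers it was 0.68 and was called (adjusted p = 0.0419). Of all probes 1847 were called there, against 730 in the fit reported, although arrays 29 and 30 then have no partner and add nothing. With these 2 arrays also taken as a pair the difference of LOC100048295 was 0.51 (adjusted p = 0.120).

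Tcf21, a helix-loop-helix factor found in mesothelium and its mesenchymal descendants, was the only member called between the liver groups. Its intensity was 95.1, 106 and 100 on WT1-high arrays 1, 8 and 29, close to the median negative control of those arrays (82.7, 92.6 and 85.1). It was 123, 153 and 105 on WT1-intermediate arrays 1, 8 and 30, and 123, 111 and 149 on WT1-negative arrays 3, 11 and 14. These intensities overlap between the liver groups. By mean intensity over all probes, WT1-intermediate array 30 was the dimmest array (147) and WT1-high array 8 the brightest (289). The log2 levels were 4.77, 4.57 and 4.98 for the WT1-high arrays, 6.38, 6.34 and 6.46 for the WT1-intermediate arrays, and 5.53, 5.03 and 6.03 for the WT1-negative arrays. On this scale no 2 groups overlapped, and WT1-intermediate had the narrowest spread (SD 0.06).

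WT1-high cells had 3.08-fold less Tcf21 than WT1-intermediate cells, a log2 difference of -1.62 (SE 0.23, 95% interval -2.12 to -1.13, adjusted p = 0.00323). The size of this difference depended on the treatment of the background, since it was -0.66 without background correction (adjusted p = 0.0150) and -0.94 with an offset of 50 (adjusted p = 0.0104). It was lower in WT1-high in each pair, with differences of -1.61 in the arrays numbered 1, -1.78 in those numbered 8 and -1.48 between WT1-high 29 and WT1-intermediate 30. Against WT1-negative cells, Tcf21 was lower in WT1-high (difference -0.76, SE 0.23, adjusted p = 0.0132) and higher in WT1-intermediate (0.87, SE 0.23, adjusted p = 0.00656). The first of these was not called without WT1-high replicate 8 (-0.63, adjusted p = 0.0546) or without WT1-negative replicate 14 (-0.50, adjusted p = 0.0626), and the second was not called under median scaling (0.43, adjusted p = 0.213). Without background correction they were -0.27 and 0.39, and with an offset of 50 they were -0.40 and 0.55, all called. Tcf21 thus ran highest in the GFP low cells of the liver, lowest in the GFP high cells and between them in cultured GFP negative cells.

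The bases before the start of the 2 helix-loop-helix members tested, Tcf21 and Hand2, are shown because Tcf21 was the member called between the liver groups, and because the motifs of GATA, helix-loop-helix and WT1 factors can be read in them. The windows are the 250 bases before the RefSeq start (GRCm38.p6). Tcf21 lies at chr10:22820144-22820393 on the minus strand and Hand2 at chr8:57320733-57320982 on the plus strand, and both are printed 5′ to 3′ along the gene. Capitals mark the GATA site (the letters GATA with A or T before them and A or G after them), the E-box (CANNTG) and a WT1 site (GCGTGGGNG), searched on both strands.
Tcf21: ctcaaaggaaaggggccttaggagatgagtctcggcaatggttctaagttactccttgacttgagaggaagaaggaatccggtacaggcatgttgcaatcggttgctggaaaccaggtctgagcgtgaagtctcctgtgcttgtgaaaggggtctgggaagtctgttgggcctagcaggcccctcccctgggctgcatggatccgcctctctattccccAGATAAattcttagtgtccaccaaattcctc
Hand2: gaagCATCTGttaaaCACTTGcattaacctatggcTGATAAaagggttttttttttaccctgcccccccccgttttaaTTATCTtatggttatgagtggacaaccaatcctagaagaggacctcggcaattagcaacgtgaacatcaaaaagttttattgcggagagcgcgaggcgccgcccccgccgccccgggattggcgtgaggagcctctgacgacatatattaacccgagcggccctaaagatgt

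The Tcf21 window held 1 GATA site, which began at position -31 from the start, and neither an E-box nor a WT1 site. The Hand2 window held 2 GATA sites, beginning at -215 and -172, and 2 E-boxes, beginning at -246 and -235. A LIM homeodomain site (TAATTA) at -175 overlapped the second of these GATA sites, and a forkhead site (TAAACA) at -239 overlapped the second E-box. Of the windows of the same length before all RefSeq starts in the table, 26.5% held a GATA site, 66.2% an E-box, 4.84% the TAATTA site, 12% the TAAACA site and 1.65% the WT1 site. These are matches of letters and not measured sites.

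Hand2, a helix-loop-helix factor of lateral plate mesoderm, was a dim transcript. Its log2 level was 5.24, 4.69 and 5.37 on WT1-high arrays 1, 8 and 29, 4.79, 5.21 and 4.65 on WT1-intermediate arrays 1, 8 and 30, and 4.28, 4.28 and 4.25 on WT1-negative arrays 3, 11 and 14. It was detected on all 6 liver arrays and on none of the WT1-negative arrays, whose intensities of 92.8 to 93.5 were those of the background. The liver groups overlapped, and both lay above the WT1-negative arrays. Set against WT1-negative cells, Hand2 was higher at least 1.41-fold for WT1-high (adjusted p = 0.00459) and at least 1.21-fold for WT1-intermediate (adjusted p = 0.0228). Here and below, "at least" sets the bright group's mean against the dimmest signal that counted as detected. It allows for the unseen level of the dim group only, and is not a confidence limit or a minimum over other settings. The WT1-intermediate call was lost when WT1-intermediate replicate 8 was left out (adjusted p = 0.0936) and when any 1 of the 3 WT1-negative arrays was (adjusted p = 0.0520 without replicate 3, 0.0513 without 11 and 0.0603 without 14). It was also lost with an offset of 50 (adjusted p = 0.0669), median scaling (0.0654) or no filter (0.0550). Between the liver groups the difference was 0.21 (95% interval -0.23 to 0.66, adjusted p = 0.645), and it was higher in WT1-high in 2 of the 3 pairs.

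Gata6, a regulator of mesoderm and endoderm that is also known from the mesothelium, was the bright member beside LOC100048295. Its intensity was 2769, 3550 and 2708 on WT1-high arrays 1, 8 and 29, 1026, 1690 and 1076 on WT1-intermediate arrays 1, 8 and 30, and 274, 222 and 386 on WT1-negative arrays 3, 11 and 14. All 9 arrays detected it, and the groups did not overlap. The log2 level was 11.3 ± 0.03 for WT1-high, against 10.7 ± 0.27 and 7.51 ± 0.51 for WT1-intermediate and WT1-negative. It exceeded WT1-negative by 3.78 in WT1-high (SE 0.24, adjusted p = 2.11e-07), which is 13.7-fold, and by 3.23 in WT1-intermediate (SE 0.24, adjusted p = 9.35e-07), which is 9.38-fold. Between the liver groups it differed by 0.55 (95% interval 0.03 to 1.07, adjusted p = 0.263) and was higher in WT1-high in all 3 pairs. It was called there with the fixed replicate block by the labels' numbers (0.70, adjusted p = 0.0363), and not when WT1-high 29 and WT1-intermediate 30 were also taken as a pair (0.55, adjusted p = 0.0866). In the first of these settings arrays 29 and 30 add nothing, and 1847 of all probes were called, against 730 in the fit reported.

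Gata4, its relative, which is known to restrain fibrogenic change in liver mesenchyme, was dim and rested in part on 1 array. Its intensity was 106, 132 and 177 on WT1-high arrays 1, 8 and 29, 86.1, 103 and 79.8 on WT1-intermediate arrays 1, 8 and 30, and 99.4, 99.7 and 103 on WT1-negative arrays 3, 11 and 14. The probe was detected on 3 WT1-high arrays, on 2 of the WT1-intermediate arrays and on no WT1-negative array. On the log2 scale WT1-high replicate 29 stood at 6.86, above replicates 1 and 8 at 5.22 and 5.26. WT1-high cells exceeded WT1-negative cells at least 2.26-fold (adjusted p = 0.0117). The 95% interval of the fitted log2 difference was wide, from 0.44 to 2.01. Without WT1-high replicate 29 the fitted difference fell from 1.23 to 0.70 (adjusted p = 0.00800), and the call was lost with no background correction (adjusted p = 0.0563) or no filter (adjusted p = 0.0589). Between the liver groups it differed by 1.03 (95% interval 0.25 to 1.82, adjusted p = 0.156), with pair differences of 0.50, 0.24 and 2.36, and by 0.50 without WT1-high replicate 29 (adjusted p = 0.211). It was not called there, although the log2 levels of the liver groups did not overlap. WT1-intermediate and WT1-negative cells overlapped and were not called (adjusted p = 0.654).

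**Figure D2:**
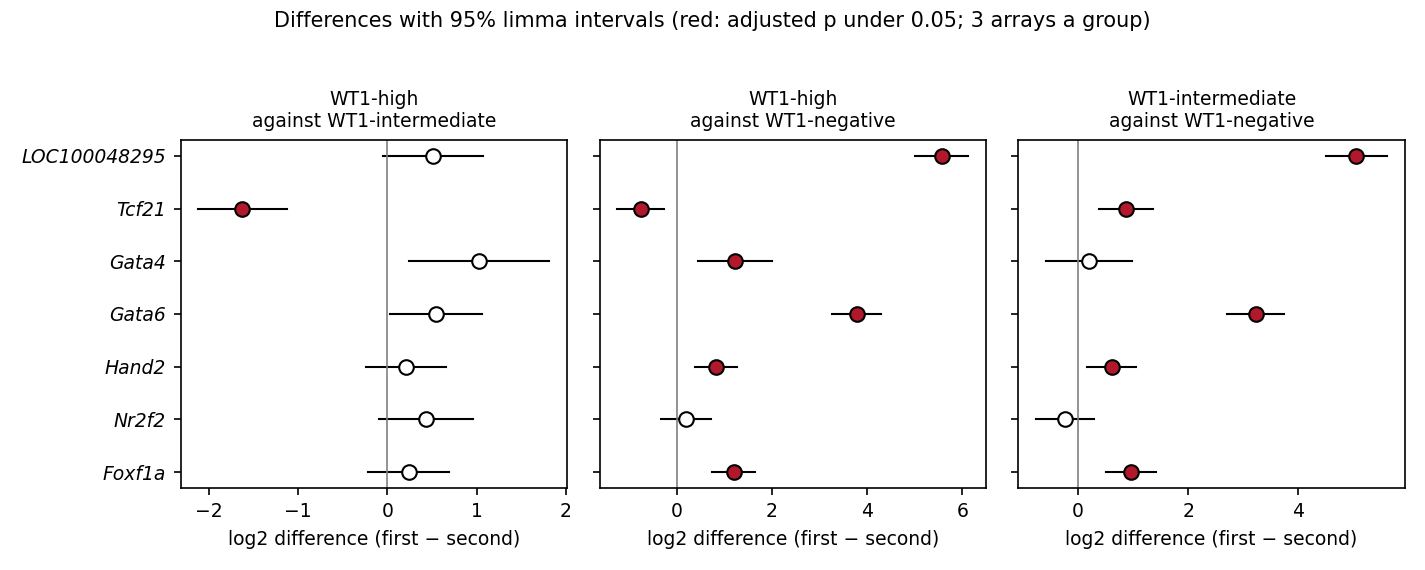
Each panel plots, for 1 comparison, the log2 difference of the 7 genes tested (horizontal axis, first group minus second, a separate scale in each panel), with bars for limma's 95% interval and red points for an adjusted p under 0.05. Tcf21 is the only gene called in the left panel, at -1.62, and LOC100048295 and Gata6 have the largest differences from WT1-negative cells, at 5.57 and 3.78 in WT1-high.

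Foxf1a, whose product is known from activated stellate cells, had a log2 level of 6.20, 6.17 and 5.50 on WT1-high arrays 1, 8 and 29, 5.72, 5.48 and 5.96 on WT1-intermediate arrays 1, 8 and 30, and 4.72, 4.67 and 4.89 on WT1-negative arrays 3, 11 and 14. It was detected on all 9 arrays, with intensities from 95.1 to 187. The liver groups overlapped and both stood above the WT1-negative arrays. It exceeded WT1-negative by 1.20 in WT1-high (SE 0.21, adjusted p = 0.000459) and by 0.96 in WT1-intermediate (SE 0.21, adjusted p = 0.00219), the latter not called under median scaling (0.64, adjusted p = 0.0747). Without background correction these differences were 0.45 and 0.34, and with an offset of 50 they were 0.66 and 0.51, all called. The liver groups differed by 0.24 (95% interval -0.22 to 0.69, adjusted p = 0.610), higher in WT1-high in 2 of the 3 pairs.

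Nr2f2, the receptor COUP-TFII, was called in no comparison. It had 3 probes, all assigned to transcript variant 2, of which 1 was detected on 9 arrays, 1 on 2 arrays and 1 on none. The log2 levels of the detected probe ran from 4.95 to 5.53 on WT1-high arrays, from 4.50 to 5.31 on WT1-intermediate arrays and from 4.75 to 5.32 on WT1-negative arrays, so that all 3 groups overlapped. WT1-high differed from WT1-intermediate by 0.43 (95% interval -0.10 to 0.96, adjusted p = 0.397) and from WT1-negative by 0.20 (95% interval -0.33 to 0.73, adjusted p = 0.50). WT1-intermediate differed from WT1-negative by -0.24 (95% interval -0.77 to 0.29, adjusted p = 0.418).

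Lhx2, which holds stellate cells in quiescence, had 1 probe that was detected on none of the 9 arrays. Tbx18 had 2 probes and neither was detected on any array. The intensities of Lhx2 lay between 76.5 and 92.3 and those of Tbx18 between 76.2 and 102. Both genes were left untested, as were the 2 other Nr2f2 probes. Lhx2 and Tbx18 transcripts were not detectable by these probes, which does not show that they were absent.

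The liver arrays were also set side by side in pairs, by number or column. The difference between WT1-high and WT1-intermediate had 1 sign in all 3 pairs for LOC100048295 (0.88, 0.49 and 0.17), Tcf21, Gata4, Gata6 (0.85, 0.55 and 0.25) and Nr2f2 (0.91, 0.23 and 0.16). Hand2 and Foxf1a did not keep 1 sign, with 0.46, -0.53 and 0.71 for Hand2 and 0.49, 0.69 and -0.47 for Foxf1a. The values stand in the order of pairs 1, 8 and 29 with 30. The last pair is joined by the column heading of the deposited table, not by the labels. The share of all probes that kept 1 sign was not computed, so these signs have no background to be read against.

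**Figure D3:**
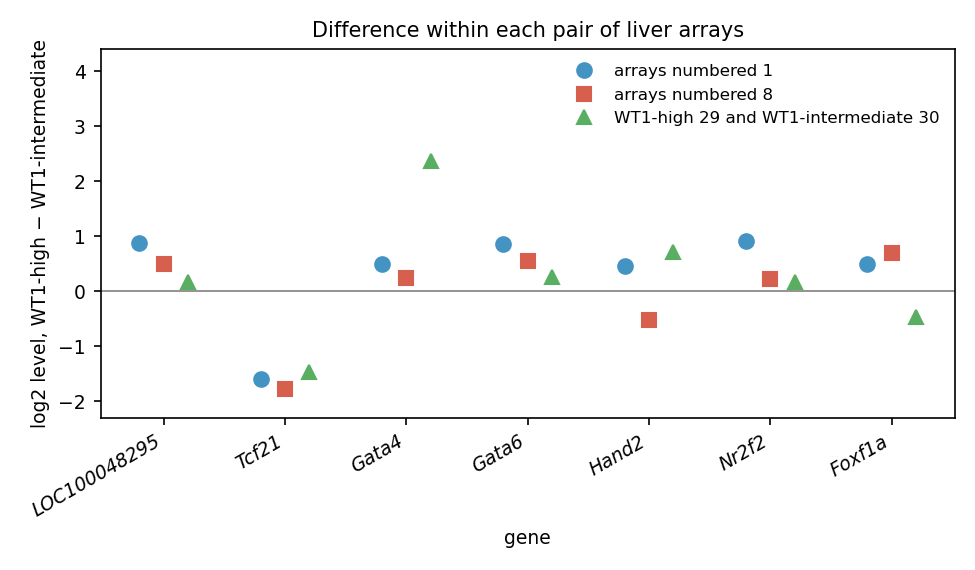
The vertical axis is the log2 level in WT1-high minus that in WT1-intermediate cells within each of 3 pairs of liver arrays, for the 7 genes tested along the horizontal axis. Circles are the arrays numbered 1, squares those numbered 8 and triangles WT1-high 29 with WT1-intermediate 30. Tcf21 lies between -1.78 and -1.48, and the triangle of Gata4 stands apart at 2.36.

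Scaling of the arrays bears on the liver comparison. Under median scaling in place of quantile normalization the median of all probes lay at 0.45 for WT1-high minus WT1-intermediate, against 0.05 in the fit reported, and 2563 of 2684 called probes were higher in WT1-high, against 186 of 730. LOC100048295 (1.14), Gata4 (1.17) and Gata6 (1.20) were then called higher in WT1-high beside Tcf21 (-1.19). Relative to the shifted median they stood at 0.69, 0.72, 0.75 and -1.64. On that relative scale Hand2 turned from 0.17 to -0.11. In WT1-intermediate against WT1-negative cells the median of all probes was -0.44 under median scaling, against -0.13, and 2545 of 11001 called probes were higher in WT1-intermediate, against 5029 of 11935.

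Some markers of other cells also differed between the liver groups, where 3.55% of all probes were called. Macrophage markers were lower in WT1-high, with 6 of 9 called and list means of 7.61 to 8.23 against 9.35 to 10.1, and all 9 were detected on every liver array. Of 11 portal and adventitial fibroblast markers, 3 were called, all lower in WT1-high, among them Pi16 (-3.27, adjusted p = 0.00102) and Dpt (-1.96, adjusted p = 0.00237). Called or not, 8 of the 11 were lower and 3 were higher, namely Thy1 (0.12), Eln (0.34) and Cd34 (0.36). The list means were 8.17 to 8.66 against 8.90 to 9.66. Of 12 endothelial markers, 3 were called lower, with list means of 5.95 to 6.23 against 6.59 to 6.71, and Kdr was detected on none of these arrays. Mesothelial markers had 1 call of 12, Dmkn, higher in WT1-high by 0.92 (adjusted p = 0.0159), and hepatocyte markers had no call of 7 tested, with a list median of 0.78. Cholangiocyte markers had 1 call of 6 tested, lower in WT1-high. Smooth muscle and skeletal muscle markers had none, of 6 and 7 tested. Of 8 stellate markers 3 were called, with Des higher in WT1-high (1.40, adjusted p = 0.0453) and Pdgfrb (-1.28, adjusted p = 0.00545) and Hgf (-1.16, adjusted p = 0.0411, detected on 2 WT1-high arrays) lower. In WT1-negative arrays the macrophage list had means of 10.4 to 10.5. The part of these cells in the Tcf21 difference was not tested.

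The other genes of these pathways were drawn from lists. A listed gene detected on no array of a group could pass the filter through the other groups, which raises its chance of a call. Of 36 partners and relatives of the members, 22 were tested. Between the liver groups 2 of these were called, both lower in WT1-high, beside 3.55% of all probes called and 2.64% called lower. The list median was 0.06 against 0.05 over all probes. Msc, a helix-loop-helix repressor related to Tcf21, was detected on no WT1-high array and on every array of the other groups, and was at least 1.57-fold lower in WT1-high than in WT1-intermediate (adjusted p = 0.0128). Lmo2, a LIM-only partner of GATA and helix-loop-helix factors that is best known from blood and endothelial cells, was lower in WT1-high (-1.65, SE 0.29, adjusted p = 0.0113).

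Against WT1-negative cells, 16 of the 22 were called in WT1-high, 10 higher and 6 lower, beside 59.6% of all probes called, with a list median of 0.37 against -0.10 over all probes. Zfpm2, the cofactor FOG2 that binds GATA factors, was higher by 3.64 (SE 0.27, adjusted p = 7.63e-07), Gata5 by at least 3.41-fold (adjusted p = 1.66e-06) and Pawr, a protein that binds WT1, was higher by 1.93 (adjusted p = 7.89e-06). Gata5, like Gata3, Lhx9 and Wtap among the genes called higher, was detected on no WT1-negative array and passed the filter through the liver arrays. Lower were Lmo2 (-4.38, adjusted p = 3.28e-07), Ldb2, which bridges LIM proteins (-2.01, adjusted p = 5.41e-07, detected on 1 WT1-high array), and Basp1, a corepressor of WT1 (-1.44, adjusted p = 3.91e-05, detected on 2 WT1-high arrays). In WT1-intermediate against WT1-negative cells 14 of the 22 were called, 9 higher and 5 lower, beside 58.0% of all probes, with a list median of 0.33 against -0.13 over all probes.

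Of 30 other factors of the coelomic lining and septum transversum, 23 were tested, and 4 were called between the liver groups, beside 3.55% of all probes. Osr2, a zinc finger factor of mesenchyme, was lower in WT1-high (-2.87, SE 0.26, adjusted p = 0.000254), with log2 levels of 5.16 ± 0.47 against 8.03 ± 0.31 (SD, n = 3 each). Ebf2 was lower (-1.87, SE 0.25, adjusted p = 0.00288, detected on 2 WT1-high arrays), and Ebf1, detected on no WT1-high array, was at least 1.66-fold lower (adjusted p = 0.0220). Both are early B-cell factors, a family also active in mesenchyme. Barx1, a homeodomain factor of foregut mesenchyme, went the other way and was higher in WT1-high by 0.89 (SE 0.18, adjusted p = 0.0225). The list median was 0.06 against 0.05 over all probes.

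In WT1-high against WT1-negative cells 16 of these 23 were called, 11 higher and 5 lower, beside 59.6% of all probes. Bnc1, a zinc finger factor of mesothelium and epithelia, was higher by 4.28 (adjusted p = 4.64e-07), although only 1 of the 3 WT1-negative arrays detected it, and Nfib was higher by 2.88 (adjusted p = 4.27e-07). Twist2 was at least 2.99-fold lower (adjusted p = 6.94e-05), and Prrx1 (-1.51, adjusted p = 6.49e-05) and Hlx (-1.36, adjusted p = 0.000166), both mesenchymal homeodomain factors, were lower. In WT1-intermediate against WT1-negative cells 17 were called, 12 higher and 5 lower, beside 58.0% of all probes. The list median was 0.23 in WT1-high and 0.57 in WT1-intermediate against WT1-negative cells, beside -0.10 and -0.13 over all probes.

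Retinoic acid is made by the mesothelium in development, and whether it acts on these factors was not tested here. Of 18 enzymes and receptors, 15 were tested, and 1 was called between the liver groups, beside 3.55% of all probes. It was Rdh10, which makes retinaldehyde from retinol (0.99 higher in WT1-high, adjusted p = 0.0497). Against WT1-negative cells 8 were called in WT1-high, 6 higher and 2 lower, beside 59.6% of all probes, and 6 in WT1-intermediate, 5 higher and 1 lower, beside 58.0%. Aldh1a1, detected on 2 WT1-negative arrays, was higher in WT1-high by 6.04 (adjusted p = 7.81e-10) and Aldh1a2, the enzyme of the embryonic mesothelium, by 2.47 (adjusted p = 4.69e-05). The 2 lower genes were the receptor Rxra (-0.77, adjusted p = 0.00306, detected on 2 WT1-high arrays) and the retinaldehyde reductase Dhrs3 (adjusted p = 0.0281), which was detected on no WT1-high array and was at least 1.47-fold lower there. The list median was 0.16 between the liver groups, 0.18 for WT1-high and 0.08 for WT1-intermediate against WT1-negative cells, where the medians of all probes were 0.05, -0.10 and -0.13.

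For each member tested, the probes with the most similar profile over the 9 arrays were found by the root mean square (r.m.s.) difference of centred log2 levels, as a description without a test. Tcf21 ran closest to Ebf3 (r.m.s. 0.24, Pearson r = 0.94), Ccl19 (0.29, r = 0.92) and Il17d (0.32, r = 0.90). Ebf3 is a relative of Ebf1 and Ebf2, and Ccl19 is a chemokine of stromal cells. Their differences between WT1-high and WT1-intermediate were -1.52, -1.44 and -1.24, as the choice by likeness to Tcf21 requires. Most probes that vary between groups will correlate over 9 arrays in 3 groups, so r adds little to the r.m.s. difference.

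**Figure D4:**
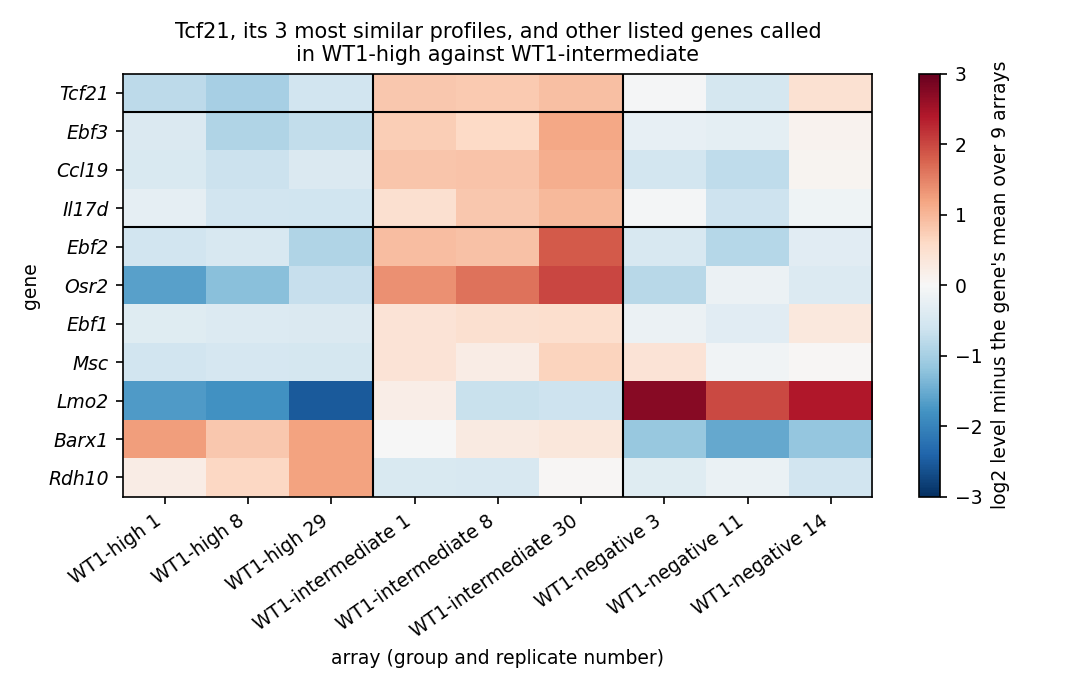
Colours give the log2 level minus the gene's own mean over 9 arrays, with arrays along the horizontal axis and genes along the vertical axis. The top row is Tcf21, the next 3 rows its most similar profiles, and the rest the listed genes called in WT1-high against WT1-intermediate. Rows from Tcf21 to Msc are highest on average in the WT1-intermediate arrays, Lmo2 is highest in WT1-negative and Barx1 and Rdh10 in WT1-high.

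Gata6 ran closest to B3gnt9 (r.m.s. 0.17, r = 0.995), Zfpm2 (0.20, r = 0.993) and Mst1r (0.21, r = 0.993), and the level of Zfpm2 was above that of WT1-negative cells by 3.64 (WT1-high) and 3.31 (WT1-intermediate). LOC100048295 ran closest to the desmosomal cadherin Dsg2 (0.19, r = 0.999), to Cav1 (0.23, r = 0.996) and to Smpd3 (0.25, r = 0.995). Gata4 ran closest to Prl2c4 (0.29, r = 0.92), the retinoic acid carrier Crabp2 (0.31, r = 0.91) and LOC100046035 (0.31, r = 0.94). These are dim probes, and the SD of Prl2c4 over the WT1-high arrays was 1.16. The closest profiles to Hand2, Nr2f2 and Foxf1a lay within 0.10 to 0.15 r.m.s., where many dim probes share the same small range, and are not listed.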

How the data were processed

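Each deposited value is a linear probe intensity that the authors took from BeadStudio before any normalization, and a deposited detection p-value stands beside it. The submitters' processing notes name limma. A joined copy held equal values (largest difference 0). Authors' comparisons were not used.

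Intensities were background corrected with the 936 negative control probes (neqc, offset 16), quantile normalized and log2 transformed over 9 arrays, in limma 3.58.1 (R 4.3.3), following the study's outline. The offset understates the fold change of dim probes. Keeping probes detected (p under 0.05) on 3 or more arrays, a filter the study does not state, left 20573. A linear model with 3 group levels was fitted (6 residual and 5.19 prior degrees of freedom) and groups were tested two-sided with limma's moderated statistic and Benjamini-Hochberg adjustment. The steps were tested on simulated data. A gene stands for its brightest kept probe. Named from lists were genes called between the liver groups, and the 3 largest rises and 3 largest falls called in WT1-high against WT1-negative, of which some are not reported here. The members and lists were chosen with earlier results of these data known. No per-sample columns were left unmapped.

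One WT1-intermediate column carried the number 29 where its label gives 30, and was taken as replicate 30, whose values the joined table gives. The study states 3 animals for the 6 liver arrays. Deviations from group means correlated over probes between arrays of the same number or column (3 pairs, 0.34 to 0.47), and between -0.39 and 0.03 in the other 6 combinations. The numbers were thus taken to pair the samples. The study's model states no pairing, so none was used in the fit reported. The study describes culture replicates as separate cell isolations. The number of arrays limits precision. Other normalizations, offsets, filters, weights, priors, probe means and replicate blocks were tried, and each array was left out in turn. One block was added after seeing the data. Promoter sequences are RefSeq's (GRCm38.p6). Tcf21, Lhx2, Hand2, Nr2f1, Nr2f2 and Tbx18 matched by symbol, and Gata6 was not looked up.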

Additional observations from a re-analysis of the deposited data

How the results depend on the processing

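The count of members called between WT1-high and WT1-intermediate stayed at 1, Tcf21, under 21 of 23 alternatives, 1 of which was added later. It was 4 under median scaling and 3, Tcf21 included in both, with the fixed replicate block by the labels' numbers. Against WT1-negative cells the count lay between 4 and 6 for WT1-high (6 in the fit reported, and 4 of the 5 left to test where detection on all 9 arrays was required) and between 2 and 5 for WT1-intermediate (5 in the fit reported), the 2 being under median scaling. Leaving out each array in turn gave 1 in every case, 5 to 6 and 4 to 5. The random replicate blocks and the added fixed replicate block (29 with 30) changed no call of a member. The differences of Hand2 and Gata4 from WT1-negative cells also depended on background correction, without which the fitted values were 0.28 and 0.21 for Hand2 (0.83 and 0.61 in the fit reported, WT1-high first) and 0.47 for Gata4 (1.23). Nr2f2 in WT1-intermediate against WT1-negative reversed to 0.0613 under cyclic loess, and Hand2 between the liver groups to -0.0356 with the fixed replicate block by the labels' numbers; neither was called. Over all probes, 730 were called between the liver groups, 335 without a filter, 339 with these groups alone in the fit, 1847 and 1752 with the fixed and random replicate block by the labels' numbers, 1520 and 1796 with these blocks joining 29 and 30, 2684 under median scaling, and 333, 371 and 324 without WT1-high replicate 8, WT1-high replicate 29 and WT1-intermediate replicate 1; the cause was not tested. The files name no slide, so a slide block was not run. Signals near the background limit what could be seen of Lhx2, Tbx18, Gata4 and Hand2.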
